A study of Rattus norvegicus with 6 samples.

Results

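The 8 genes described here belong to cholesterol synthesis and its feedback control: Hmgcs1, Mvk, Idi1, Fdps, Sqle and Sc5d encode enzymes of the pathway, and Insig1 and Srebf2 encode parts of its regulatory loop. They were chosen by name, with earlier results of these data known, as 8 of 31582 genes or sequences measured well enough to be tested. The microarray carried 20 probes for them. Probes were assigned by matching the RefSeq transcript given for each probe to the gene's rat symbol. Each of 6 rats gave 1 sample of renal cortex RNA, read on 1 one-colour Agilent array. The animals were male Sprague-Dawley rats, Crl:CD(SD), bought at 5 weeks of age. In the control group, 3 rats received corn oil for 4 weeks. In the other group 3 rats were given the flame retardant 2,2-bis(bromomethyl)-1,3-propanediol, written BBMP below, at 1000 mg/kg/day for 4 weeks. The comparison asks which genes differ in cortex after this treatment, at 1 dose and 1 time.

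Cells build cholesterol from acetyl-CoA through mevalonate, isoprenoid diphosphates, squalene and a series of sterols. The transcription factor SREBP2, encoded by Srebf2, is held in the endoplasmic reticulum by INSIG proteins when sterols are abundant. When sterols fall it moves to the Golgi, is cleaved, enters the nucleus and raises transcription of most genes of the pathway, of its own gene and of Insig1. In kidney the pathway supplies membranes of the tubule epithelium and the isoprenoids that anchor small GTPases.

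Known SREBP2 sites lie close to boxes that bind the general factors NF-Y and Sp1, so the region just before the start of 4 of the genes is shown: the 3 genes that changed, and Srebf2, the regulator. Each is the 250 bases before the start, on the coding strand, from RefSeq on GRCr8. Capitals mark CCAAT (the NF-Y box), GGGCGG (the GC box bound by Sp1), CACGTG (the E-box) or TCACNCC, each on either strand.
Insig1, chr4:8057770-8058019, minus strand: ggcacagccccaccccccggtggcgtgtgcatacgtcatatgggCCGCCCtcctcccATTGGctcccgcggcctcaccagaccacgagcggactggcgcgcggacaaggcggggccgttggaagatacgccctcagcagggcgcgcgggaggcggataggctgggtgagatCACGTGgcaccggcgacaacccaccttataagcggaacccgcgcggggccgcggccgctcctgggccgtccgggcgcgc
Sc5d, chr8:51538278-51538527, minus strand: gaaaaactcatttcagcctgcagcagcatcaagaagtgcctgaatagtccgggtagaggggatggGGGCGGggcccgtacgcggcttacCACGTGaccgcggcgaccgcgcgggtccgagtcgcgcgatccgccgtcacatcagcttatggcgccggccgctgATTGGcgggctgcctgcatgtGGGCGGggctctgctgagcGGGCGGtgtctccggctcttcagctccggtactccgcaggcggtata
Mvk, chr12:47819504-47819753, minus strand: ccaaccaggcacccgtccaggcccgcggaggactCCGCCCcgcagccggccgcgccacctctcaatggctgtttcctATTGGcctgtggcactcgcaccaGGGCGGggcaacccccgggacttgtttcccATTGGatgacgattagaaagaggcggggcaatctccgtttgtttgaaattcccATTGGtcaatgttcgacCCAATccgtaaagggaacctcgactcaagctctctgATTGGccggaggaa
Srebf2, chr7:115543057-115543306, plus strand: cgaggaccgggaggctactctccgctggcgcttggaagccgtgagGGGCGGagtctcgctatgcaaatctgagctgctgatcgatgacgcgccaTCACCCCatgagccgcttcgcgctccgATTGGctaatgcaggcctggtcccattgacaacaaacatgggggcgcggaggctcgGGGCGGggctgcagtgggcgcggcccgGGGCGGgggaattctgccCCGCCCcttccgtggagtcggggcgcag
Windows of 300 bases, including 50 bases after the start, were available for 7 of the 8 genes. The classic sterol regulatory element TCACNCCAC was in 0 of these 7 windows and in 1.12% of all 33469 rat windows. Its shorter core TCACNCC, searched after the windows had been seen, was in 1 of 7, that of Srebf2, and in 14.6% of all. CCAAT was in 7 of 7 windows, against 37.5% of all, and GGGCGG in 6 of 7, against 33.1%. CACGTG was in 2 of 7, those of Insig1 and Sc5d, against 6.42% of all. These are matches of letters and not measured binding. The shorter core is part of the longer element, and no other matches in the 7 windows overlapped.

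The share of probes well above background was 67.2% to 68.6% on control arrays and 70.5% to 72.7% on BBMP arrays, without overlap, and its part in the results was not tested. The raw 75th percentile of the processed signal was 943 to 950 on control arrays and 1244 to 1259 on BBMP arrays. Levels below are normalized log2 signals, the log2 processed signal minus that array's 75th percentile, so 0 is the level of the 75th percentile. Differences in level are taken between arrays for 1 probe. Between probes, levels served only to pick the brightest probe, to call probes bright or dim, and to sum cell markers. A difference is BBMP minus control, and a gene is said to change where limma's adjusted p over all genes was under 0.05. The controls shared slide 1 and scan 1, while the BBMP samples shared slide 2 and scan 2, so treatment cannot be told apart from slide or scan. Slide row coincided with treatment in part. Control replicate 3 and all BBMP arrays were in row 1, and row 2 held only control replicates 1 and 2. A comparison within row 1 therefore rests on control replicate 3 alone.

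Of the 8 genes, Insig1 and Sc5d fell, Mvk rose, and Hmgcs1, Idi1, Fdps, Sqle and Srebf2 did not pass the test. The changes that passed were between 1.32-fold and 1.45-fold. So 2 of 8 were called lower, against 7.68% of all genes tested, and 1 of 8 higher, against 10.2%. Called in either direction were 3 of 8 members, against 17.9% of all genes. Here and below, all genes means the 31582 genes or sequences tested. Of these, 12077 had a RefSeq name, as the 8 members did, and shares among named genes alone are not given. The groups did not overlap in 6 of the 8, against 43.6% of all genes. Of these 6, 4 were lower, against 18.6% of all genes, and 2 higher, against 25%. The median difference of the 8 was -0.21 on the log2 scale and that of all genes 0.05, while the median size was 0.28 against 0.21. The 8 genes and the lists below were chosen with earlier results known. Their shares beside those of all genes are therefore descriptions and not a test. Of all called genes, 57.1% were higher, but 36.4% with normexp background correction, 46.6% with cyclic loess and 35.9% with median scaling. Normexp moved the median difference of all genes to -0.06. Under each of these scalings Mvk was called higher and Sc5d and Insig1 lower.

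**Figure D1:**
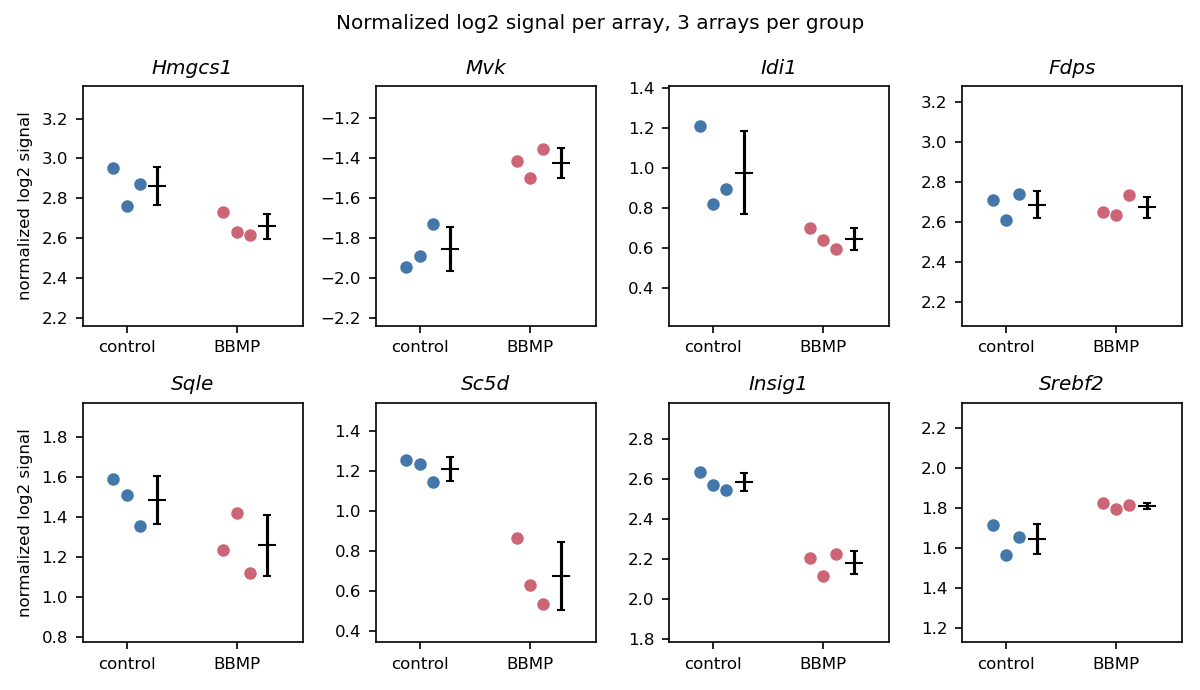
Normalized log2 signal of the brightest probe of each of the 8 genes on every array (points, in replicate order; vertical axes have their own centre and the same length), with the mean and SD of each group (n = 3). The groups are apart in Mvk, Sc5d, Insig1, Hmgcs1, Idi1 and Srebf2, and overlap in Fdps and Sqle.

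Hmgcs1 encodes the cytosolic HMG-CoA synthase, which joins acetyl-CoA and acetoacetyl-CoA at the head of the pathway. Its brightest probe read 2.95, 2.76 and 2.87 in the controls and 2.73, 2.63 and 2.62 after BBMP. All 3 BBMP arrays lay below all controls, but the gap between the nearest arrays was small. The log2 difference was -0.20 ± 0.07 (SE, n = 3 each; 95% interval -0.39 to -0.02), which did not pass (limma adjusted p = 0.112). The other Hmgcs1 probes gave -0.22 ± 0.06 and -0.15 ± 0.08, neither called (limma p adjusted over all probes 0.0585 and 0.225). With normexp the difference of Hmgcs1 shrank to -0.025.

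Mvk encodes mevalonate kinase, which adds the first phosphate to mevalonate. Its only probe read -1.94, -1.89 and -1.73 in the controls and -1.42, -1.50 and -1.36 after BBMP. Every BBMP array was above every control array. Mvk rose 1.35-fold, at a log2 difference of 0.43 ± 0.08 (SE, n = 3 each; 95% interval 0.23 to 0.63; limma adjusted p = 0.0241). A larger change in size was seen in 18.4% of all genes tested. The difference was 0.27 with normexp, still called, and 0.31 within slide row 1, where it did not pass (adjusted p = 0.211).

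Idi1 encodes the isomerase that interconverts isopentenyl and dimethylallyl diphosphate. Its brightest probe read 1.21, 0.82 and 0.90 in the controls and 0.70, 0.64 and 0.59 after BBMP. The groups did not overlap, and control replicate 1 stood above the other controls. The log2 difference was -0.33 ± 0.11 (SE, n = 3 each; 95% interval -0.62 to -0.05) and did not pass (limma adjusted p = 0.0955). Another Idi1 probe also differed by -0.33, and a dimmer one by -0.15 ± 0.14 with overlapping groups.

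Fdps encodes farnesyl diphosphate synthase, whose product leads to sterols as well as to protein prenylation. Its brightest probe read 2.71, 2.61 and 2.74 in the controls and 2.65, 2.64 and 2.74 after BBMP. The groups overlapped throughout. The difference was -0.01 ± 0.07 (SE, n = 3 each), and its 95% interval of -0.17 to 0.15 corresponds to a ratio of 0.886 to 1.11 (limma adjusted p = 0.903). The other Fdps probes differed by -0.01 and 0.02. With normexp the sign turned, at 0.07, also not called.

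Sqle encodes squalene monooxygenase, the first oxygen-dependent step and a point of flux control. Its brightest probe read 1.59, 1.51 and 1.36 in the controls and 1.23, 1.42 and 1.12 after BBMP. BBMP replicate 2 lay above control replicate 3, so the groups overlapped. The difference was -0.23 ± 0.11 (SE, n = 3 each; 95% interval -0.49 to 0.03; limma adjusted p = 0.178). The other Sqle probe differed in sign, at 0.05 ± 0.12, and was not called.

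Sc5d encodes sterol-C5-desaturase, which introduces a ring double bond late in the pathway. Its only probe read 1.25, 1.23 and 1.14 in the controls and 0.86, 0.63 and 0.53 after BBMP. All BBMP arrays were below all controls, and they were more spread than the controls (SD 0.17 against 0.06). Sc5d fell 1.45-fold, with a log2 difference of -0.54 ± 0.10 (SE, n = 3 each; 95% interval -0.78 to -0.29; limma adjusted p = 0.0236). It was the largest difference among the 8 genes, and 10.8% of all genes tested had a larger one. Within slide row 1 it was -0.47 and did not pass (adjusted p = 0.215).

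Insig1 encodes an INSIG protein of the endoplasmic reticulum, which retains the SCAP-SREBP complex when sterols are abundant. Its brightest probe read 2.64, 2.57 and 2.55 in the controls and 2.21, 2.12 and 2.23 after BBMP. The gap between the groups was wider than the range within either. Insig1 fell 1.32-fold, with a log2 difference of -0.40 ± 0.06 (SE, n = 3 each; 95% interval -0.55 to -0.25; limma adjusted p = 0.0169). All 4 of its probes were lower after BBMP without overlap of the groups, by -0.30 to -0.46 on the log2 scale. Of these, 3 were called (limma p adjusted over all probes 0.0167, 0.0172 and 0.0212), and the fourth was not (0.0742). Within slide row 1 the difference of the brightest probe was -0.36 and did not pass (adjusted p = 0.169).

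Srebf2, the gene of SREBP2 itself, read 1.72, 1.56 and 1.66 in the controls and 1.83, 1.80 and 1.81 after BBMP on its brightest probe. The BBMP arrays lay close together and above all controls. The difference was 0.17 ± 0.06 (SE, n = 3 each; 95% interval 0.01 to 0.32) and did not pass (limma adjusted p = 0.118). A dimmer Srebf2 probe read -2.11, -2.14 and -2.01 in the controls and -1.76, -1.84 and -1.60 after BBMP. That probe was called higher, at 0.35 ± 0.08 (SE, n = 3 each; limma p adjusted over all probes = 0.0408). Near background, the dimmest probe differed by 0.40 ± 0.16 and was not called (0.136). It was the 1 of 20 member probes not well above background on all 6 arrays. With the mean of the 3 probes the difference was 0.31, just short of the threshold (adjusted p = 0.0536).

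Over the 20 probes of the 8 genes, 14 had a negative and 6 a positive difference. Called in either direction were 6, against 17.8% of all 42657 probes tested. Of these, 4 were called lower, 1 of Sc5d and 3 of Insig1, against 7.46% of all probes. Called higher were 2, 1 of Mvk and 1 of Srebf2, against 10.3% of all. Probes of 1 gene share their target and are not replicates. All probes of Hmgcs1, Idi1, Insig1 and Srebf2 had the same sign within the gene, and those of Sqle and Fdps did not.

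**Figure D2:**
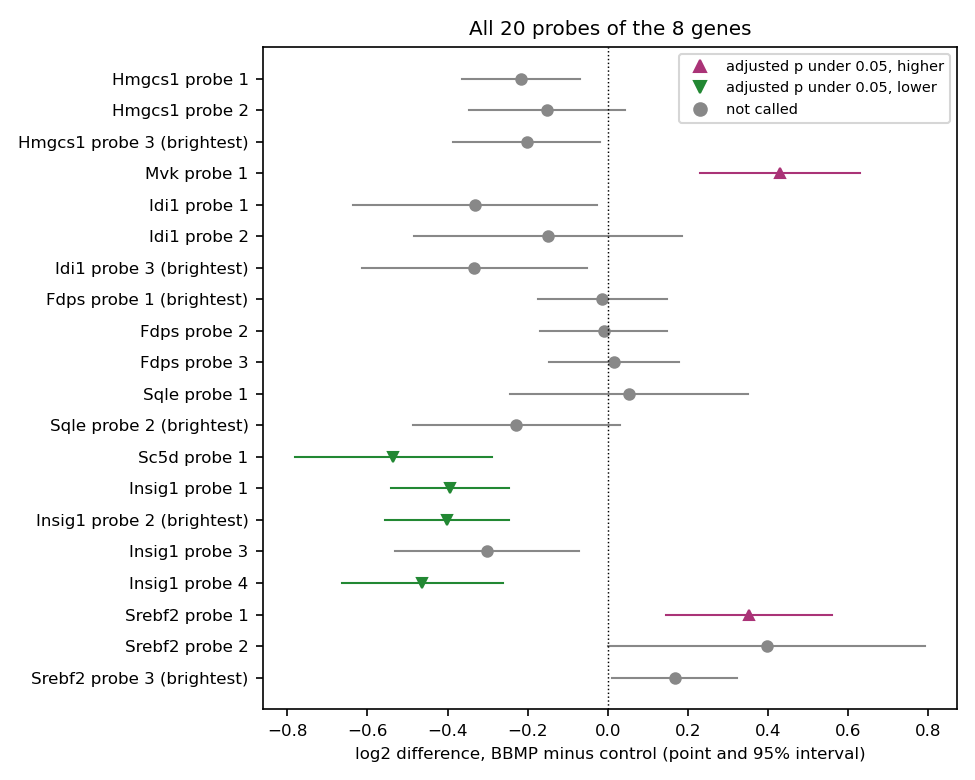
Log2 difference (BBMP minus control, n = 3 each) with its 95% interval for each of the 20 probes, from the fit over all probes. Triangles mark probes with an adjusted p under 0.05, which are 3 of 4 Insig1 probes and the Sc5d probe (lower), and the Mvk probe and 1 Srebf2 probe (higher).

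The other genes of cholesterol synthesis moved both ways as well. Of 17 listed genes, 16 were tested, with 2 called higher and 1 lower, and their median difference was 0.07. Called in either direction were 18.75% of those tested, close to the 17.9% of all genes.

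Dhcr7, whose enzyme makes cholesterol from its immediate precursor in the branch that Sc5d feeds, rose 1.25-fold (0.33 ± 0.07, SE, n = 3 each; limma adjusted p = 0.0341). Msmo1, which encodes a methylsterol monooxygenase, fell 1.22-fold (-0.28 ± 0.06, SE, n = 3 each; limma adjusted p = 0.0275). With 1 array left out, Dhcr7 and Msmo1 were each called in 0 of 6 fits. Both also missed the threshold with no filter on dim probes, and Dhcr7 with median scaling. Acat2, which encodes the acetoacetyl-CoA thiolase before HMG-CoA synthase, differed by 0.36 ± 0.12 and was not called (limma adjusted p = 0.0857), although its other probe was, at 0.47 ± 0.10 (p adjusted over all probes = 0.0343). Tm7sf2 and Hsd17b7, both of sterol reduction, differed by 0.28 ± 0.09 and 0.28 ± 0.16, not called. With median scaling, 1 gene of the list was called higher and 3 lower, and with normexp 3 and 2.

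Among genes of SREBP control and sterol transport, 20 of 24 listed were tested, with 0 called higher, 1 lower and a median difference of 0.01. Called in either direction were 5% of those tested, against 17.9% of all genes. Scap, the escort of SREBP, differed by -0.03 ± 0.07. Insig2, the relative of Insig1, differed by -0.15 ± 0.06 (SE, n = 3 each; limma adjusted p = 0.136). Its arrays read -0.20, -0.25 and -0.20 in the controls and -0.40, -0.39 and -0.30 after BBMP, without overlap.

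Npc1, whose protein exports cholesterol from lysosomes, was the 1 gene called, lower by 1.33-fold on its brightest probe (-0.41 ± 0.08, SE, n = 3 each; limma adjusted p = 0.0255). Of its 7 probes, 5 were negative and 2 positive, only that 1 was called, and the mean of all 7 differed by 0.0059. Both positive probes were dim, with control means of -5.12 and -5.53, and the latter was well above background on only 4 arrays. A negative probe was dim too, with a control mean of -4.59. The mean gives each probe the same weight. Npc1 was called in 0 of 6 fits with 1 array left out. Abcg1, a cholesterol exporter, differed by -0.43 ± 0.18 and Abca1, another, by 0.22 ± 0.24, neither called. Cyp27a1, a sterol hydroxylase, differed by 0.34 ± 0.19, not called. Scarb1, the HDL receptor gene, missed the threshold on its brightest probe (0.31 ± 0.09, limma adjusted p = 0.0634), while both its other probes were called higher, at 0.44 and 0.40. With normexp 3 genes of this list were called higher and 1 lower, and with median scaling 0 and 2.

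**Figure D3:**
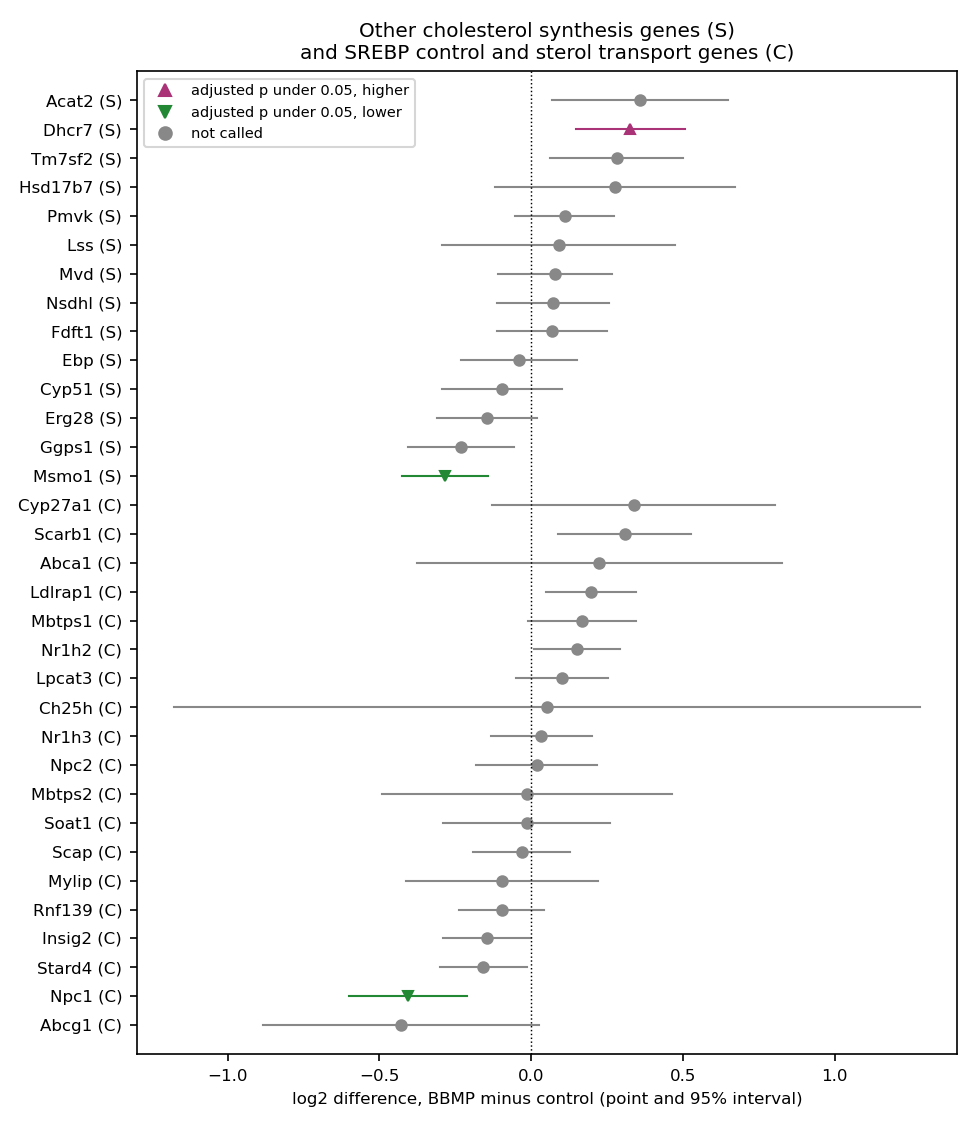
Log2 difference (BBMP minus control, n = 3 each) with its 95% interval for 14 other cholesterol synthesis genes (S) and 19 genes of SREBP control and sterol transport (C), each by its brightest probe. Dhcr7 was called higher (upward triangle), and Msmo1 and Npc1 lower (downward triangles).

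The level of each of the 8 genes over the 6 arrays was set beside that of 11588 named genes that every array measured well above background. With so few arrays and so many genes, high correlations can be common. Above 0.95, 487 genes correlated with Insig1, 412 with Mvk and 280 with Sc5d, the called members. For the uncalled members the counts ran from 9 for Fdps to 80 for Srebf2. The gene most like Insig1 was Id4 (r = 0.998), a transcriptional regulator, which differed by -0.68 ± 0.08 (SE). The genes most like Sc5d and Mvk were Parg (r = 0.999) and Doxl1 (r = 0.9997), and for Hmgcs1, Idi1, Fdps, Sqle and Srebf2 they were Cst6 (0.995), Pigu (0.991), Emc6 (0.994), Erh (0.987) and Gpr108 (0.994). Within the 8 genes, after the group means were removed, Hmgcs1 correlated with Idi1 at 0.87 and with Srebf2 at 0.89, and Mvk with Sqle at -0.95. Before removal these pairs stood at 0.95, -0.51 and -0.90, so the sign turned for Hmgcs1 with Srebf2. The pairs were picked from among the strongest of all pairs of the 8 genes after removal. Other pairs were then near 0, such as Mvk with Insig1 at -0.006 and Sqle with Srebf2 at 0.02, against -0.92 and -0.62 before removal. All these correlations are descriptions over 6 arrays that share their scaling.

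Markers of cells that the cortex holds or could be mixed with were measured beside these genes. Of 28 listed, 22 were tested, with 2 called higher, against 10.2% of all genes, and 1 lower, against 7.68%. The 5 proximal tubule markers were bright and not called, with a summed level of 919 to 1013 times the 75th percentile in controls and 948 to 968 after BBMP. Aqp4, of principal cells, fell 1.53-fold (limma adjusted p = 0.0197), and Aqp2, of the same cells, differed by 0.01 ± 0.12 (SE), not called. The summed principal cell level overlapped, at 80.6 to 90.5 against 72.2 to 96.6. That sum is mostly Aqp2 signal, so it cannot show a change of Aqp4. Of 5 markers of adrenal cortex, an organ with high sterol synthesis, 2 were tested. Cyp21a1 rose 1.51-fold (limma adjusted p = 0.0298), and the dim Cyp11b2 differed by -0.29 ± 0.20 (SE), not called (limma adjusted p = 0.342). The summed level of these 2, mostly Cyp21a1 signal, was 0.251 to 0.319 in controls and 0.376 to 0.433 after BBMP. The defining markers Cyp11b1 and Star did not rise well above background in any sample, and Mc2r was not tested. The part of these markers in the results for the 8 genes was not tested. In whole cortex, fewer cells of a type and less RNA per cell cannot be told apart.

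**Figure D4:**
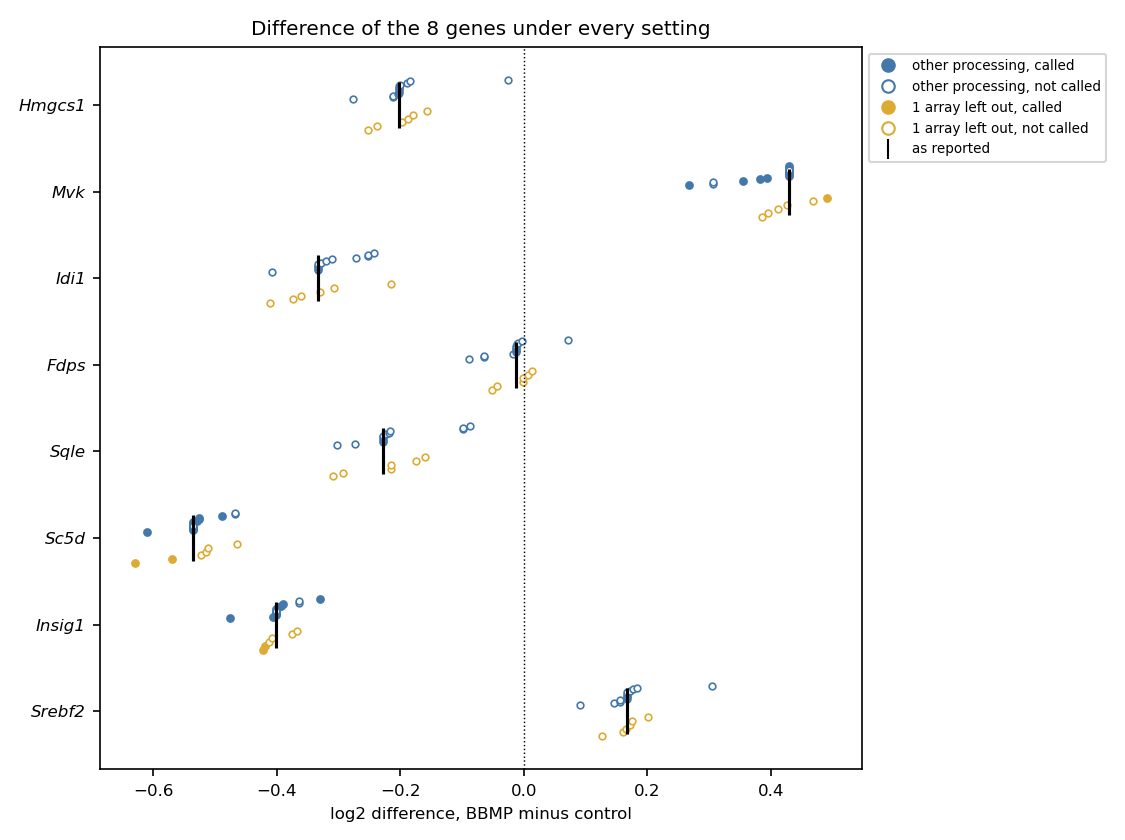
Log2 difference of each of the 8 genes as reported (black bar), under 13 other ways of processing (blue) and with each of the 6 arrays left out (yellow). Filled points passed an adjusted p of 0.05 and open points did not. Points of Insig1, Sc5d and Mvk stay on 1 side of 0, those of Fdps fall on both sides.

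Each of the 3 calls was lost when some single arrays were left out, and all 3 were kept without control replicate 3. With 1 array left out, Insig1 was called in 2 of 6 cases, without control replicate 3 and without BBMP replicate 3. Sc5d was called in 2 of 6, without control replicate 3 and without BBMP replicate 1, and Mvk in 1 of 6, without control replicate 3. In the other cases their adjusted p lay between 0.053 and 0.0774. The differences stayed between -0.37 and -0.42 for Insig1, between -0.46 and -0.63 for Sc5d and between 0.39 and 0.49 for Mvk. Without BBMP replicate 2, limma called 0 of the 8 genes, with 4 at an unadjusted p under 0.05, and 3 of all genes tested.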

How the data were processed

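RNA of each rat was read on a one-colour Agilent rat array designed on rn4. The deposited scanner files give spot intensities made by the authors with Agilent Feature Extraction 10.7.1.1, per the file headers, the processed signal being background-subtracted. Spot flags (a score of 0 or 1) for background, saturation and outliers are from the same deposited files. A deposited table of ratios to about each array's 75th percentile was used as an alternative; how the authors made it is not given in the sources used here. Each of its columns fitted best to a scanner file belonging to a different sample in that group (median gap 0.0036 to 0.0058 log2, against 0.116 to 0.147 to its own), so replicate numbers, taken from the scanner files, are uncertain while groups are not.

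From 61657 probes, 84 ERCC spike-in and 10 outlier-flagged probes were left out. Log2 processed signals minus each array's 75th percentile were fitted with limma 3.58.1 in R 4.3.3 (lmFit, eBayes, two-sided, Benjamini-Hochberg over all genes, threshold 0.05). A probe was tested if well above background on all 3 arrays of a group, which left 42657, and a gene was represented by its brightest probe. Names came from RefSeq transcript accessions, matched for 27460 probes, and promoter windows from RefSeq on GRCr8. Precision is limited by the number of arrays. The 8 genes and the gene lists were chosen with earlier results of these data known. Of the other pathway genes, those called and up to 4 uncalled ones per list with the largest differences are named by rule; Scap and Insig2 were added after their values were seen. Some genes counted in the lists are not reported here by name. For each of the 8 genes, the gene with the highest Pearson correlation over the 6 arrays is named. Alternatives covered background correction, normalization, filter, probe choice, moderation, array weights, replicate block, slide row and leaving out each array.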

Additional observations from a re-analysis of the deposited data

How the results depend on the processing

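In 10 of 13 other ways of processing, 3 of the 8 genes were called. The slide row as a block, and slide row 1 alone (1 control array), gave 0 called of the 8 (3 at an unadjusted p under 0.05 in limma in both), 0 of each pathway list and 0 of all genes (7288 and 7178 unadjusted). Replicate numbers did not pair the arrays: deviations of same-numbered arrays correlated at -0.12, -0.08 and -0.07. With the replicate block limma called 0 of the 8 genes (5 unadjusted), 0 of each list and 0 of all 31582 genes (9943 unadjusted); the adjusted p was 0.0774 for Mvk, 0.0753 for Sc5d and 0.0785 for Insig1. The other cholesterol synthesis genes called numbered 3 as reported, 5 with normexp, 5 with trend and robust moderation and 1 with no filter on dim probes. The SREBP control genes called numbered 1 as reported, 4 with normexp and 2 each with median scaling, the mean of probes, and trend and robust moderation. With 1 array left out, the counts were 0 to 3 of the 8 genes, 0 to 2 and 0 to 1 of the lists, and 3 to 4002 of all genes, against 5659 with all arrays. Fdps turned positive, uncalled, with normexp (0.072) and in 2 of the 6 fits with 1 array left out, without control replicate 3 (0.0126) and without BBMP replicate 2, the range being -0.051 to 0.0126, and Npc1 with the mean of its probes (0.0059). The other 7 genes kept their direction in all 19 alternatives. The causes of these differences were not tested. Fits with an array left out also used fewer arrays, and the part of that was not tested either.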
